A study of Homo sapiens with 6 samples.

Results

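The cytosolic ribosomal protein genes encode the protein subunits of the ribosomes that translate nuclear-encoded mRNA. They were taken by name, as every gene named RPL or RPS with a number, together with RPLP0, RPLP1, RPLP2 and RPSA. Names of pseudogenes were left out. This rule found 84 of the 60664 genes in the table, of which 52 belong to the large and 32 to the small subunit. A mean of at least 1 TPM (an abundance corrected for the length of the gene and the library's total) over the 6 libraries was required for a test. It was met by 83 members, 51 of the large and 32 of the small subunit. The remaining gene, RPL10L, was listed at 0 in every library.

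All libraries came from 67R cells, a line derived from the lung adenocarcinoma cell line NCI-H1975 by exposure to rising doses of the EGFR tyrosine kinase inhibitor ASK120067. The controls (siNC, n = 3) received a negative control siRNA and the knockdown samples (siBCAT1, n = 3) an siRNA against BCAT1, the cytosolic transaminase of leucine, isoleucine and valine. Both groups thus share the resistant background. The labels give no time after transfection and do not identify the siRNA. The study's methods list more than 1 siRNA against BCAT1 and give the name siBCAT1 to a single one of them. A general statement in the methods gives at least 3 independent experiments for the results, but it does not name the RNA-seq libraries. Whether the libraries of a group came from separate cultures is thus not given. The p-values therefore measure only the spread between these libraries, which may be technical.

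Ribosomal proteins are made in near equal numbers, since each ribosome carries one of most of them, and surplus copies are degraded. Their mRNAs are among the most abundant of a growing cell. Many start with a C followed by a run of pyrimidines, the 5′ terminal oligopyrimidine (TOP) motif, through which mTORC1 and the protein LARP1 control their translation. mTORC1 is itself activated by leucine, a substrate of BCAT1. Several members also have a second, less abundant gene copy that is expressed in a restricted set of tissues, and RPL5 and RPL11 carry the 5S rRNA and can bind the p53 regulator MDM2.

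The values summed to between 992512 and 995593 TPM per library, with 23152 to 25043 genes above 0. TPM keeps no read total, so the depth of the libraries is unknown and no counting error can be given. The level of BCAT1 itself was 42.7, 42.2 and 29.8 TPM in siNC (here and below in the order of replicates 1, 2 and 3) but 8.78, 7.10 and 8.0 TPM in siBCAT1, a log2 fold change of -2.12 ± 0.15 (SE, limma adjusted p = 0.000272). Of the 10 epithelial and lung adenocarcinoma markers, 7 were tested and 5 were lower, with a summed level of 2564 to 2970 TPM in siNC and of 1664 to 1952 TPM in siBCAT1. KRT7, KRT8 and KRT18 were abundant, whereas EPCAM stayed between 0.91 and 2.61 TPM and the lung markers NKX2-1, NAPSA and SFTPB were below the filter. Of the 4 leukocyte markers 2 were tested and CD68 alone was higher (sums of 30.3 to 39.2 against 53.5 to 60.7 TPM, CD3E at 0). Of the 4 fibroblast markers 2 were tested and both were lower (sums of 16.8 to 24.4 against 11.4 to 14.5 TPM, DCN at 0). Of the 4 endothelial markers 1 was tested and it was not called (sums of 0.79 to 0.96 against 1.04 to 2.69 TPM). The part of these marker changes in the results below was not tested.

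In siBCAT1 the ribosomal protein genes were lower as a group by a small amount, and a handful of members moved much further in either direction. RPL36A fell by 61.8%, RPS4X fell by 25.8%, while RPL11 was 48.6% and the copy gene RPL26L1 178% higher. The log2 fold change of log2(TPM + 1) was negative for 69 of the 83 members tested and positive for 14, with a median of -0.10 beside 0.04 for all 14286 genes tested. With limma, 31 members (37.3%) were lower, against 10.4% of all genes tested, and 5 (6.02%) were higher, against 16.7% of all genes. The siBCAT1 and siNC values did not overlap, with siBCAT1 lower, for 45 members (54.2%, against 18% of all genes) and, with siBCAT1 higher, for 7 (8.43%, against 26.1% of all genes). The 5 and the 7 include RPL3L, which reached the filter only through its siBCAT1 values. With a mean of at least 5 TPM required, 4 members were higher and 33 lower by limma.

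Most of these shifts were shallow. The log2 fold change lay within ±0.2 for 66 members and beyond ±0.3 for 8, and the median standard error of the members was 0.04 beside 0.13 for all genes tested. The count of 31 lower members changed between settings: it was 4 without a trend of the variance on expression, 8 without a filter on low values and 13 (with 8 higher) under quantile normalization. It was 35 with a correction for gene length or with scaling to the total outside the members, and 49 with that correction and the replicate number as a block together. It was 18, 18 and 17 when siNC replicate 3, siBCAT1 replicate 1 or siBCAT1 replicate 2 was left out. RPL36A, RPS4X, RPS27L, RPS19, RPL11, RPL26L1 and RPL39L kept their call and direction in all 17 alternatives.

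**Figure D1:**
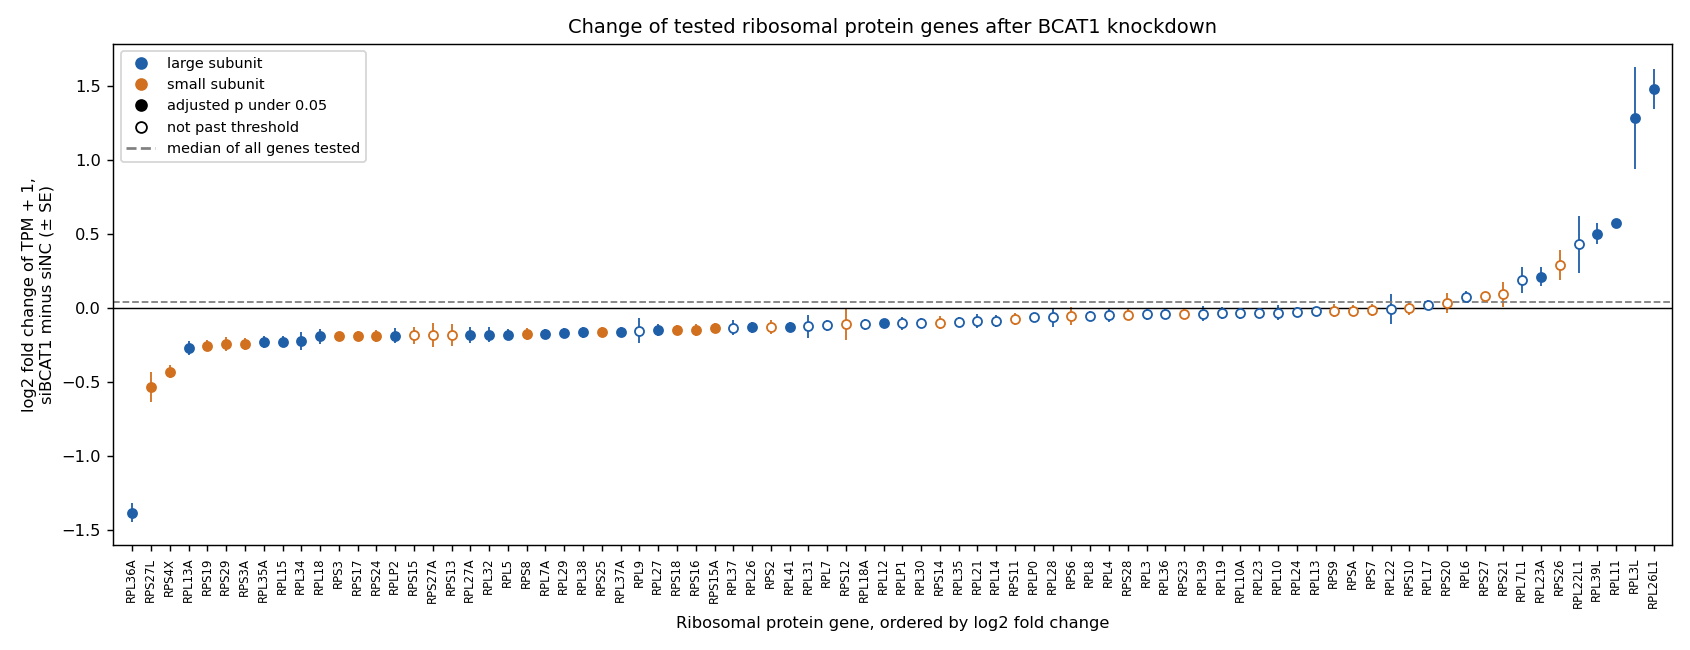
Log2 fold change of TPM + 1 (siBCAT1 minus siNC, ± SE) of the 83 tested ribosomal protein genes, less 1 that is not reported here, ordered by size, with large subunit genes in blue, small subunit genes in orange, filled points for an adjusted p under 0.05 and a dashed line for the median of all genes tested. Most points sit just below 0, and RPL36A (-1.39) and RPL26L1 (1.48) mark the ends.

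The members were a large part of the transcriptome. Their mean levels ran from 1.37 TPM for RPL3L to 6913 TPM for RPS27, with a median of 1990 TPM, and 50 of the 100 most abundant genes were members. Together they made up 18.6%, 18.9% and 18.8% of the summed TPM in siNC and 17.4%, 17.5% and 17.7% in siBCAT1. The groups did not overlap, and the mean was lower by 1.24 percentage points in siBCAT1 (18.8% ± 0.162 against 17.5% ± 0.167, SD, n = 3). Members with a lower mean in siBCAT1 decreased by 13912 TPM in sum and members with a higher mean gained 1805 TPM.

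Because TPM is relative, less ribosomal protein mRNA and more of all other mRNA per cell cannot be told apart, nor can less mRNA per cell and fewer cells of a kind that is rich in it. Relative to the total outside the ribosomal protein genes, the difference was -1.84 percentage points.

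Both subunits took part. The large subunit genes held 11.1% ± 0.121 of the summed TPM in siNC and 10.4% ± 0.112 in siBCAT1, and the small subunit genes 7.64% ± 0.159 and 7.14% ± 0.105 (SD, n = 3). The ratio of small to large subunit TPM was 0.687 ± 0.0184 in siNC and 0.687 ± 0.0114 in siBCAT1, so the groups overlapped. Of the large subunit genes 18 were lower (35.3%, against 10.4% of all genes tested) and 5 higher (9.8%, against 16.7%), and their median log2 fold change was -0.09. The 5 include RPL3L. With a mean of at least 5 TPM required, 19 large subunit genes were lower and 4 higher, with a median of -0.10. Of the small subunit genes 13 were lower (40.6%), with a median of -0.13, and none was higher by limma after adjustment, although 18 of the 32 had an unadjusted p under 0.05 in either direction; 1 small subunit gene was higher under quantile normalization or with the replicate number as a block, and 2 without siNC replicate 2. The large subunit median turned to 0.01 under quantile normalization and the small subunit median to -0.05. No test of the difference between the subunits was run.

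Among the members the signed change had no close relation to level or length. Across the 83 tested members, which share the same 6 libraries, Spearman's rho between the log2 fold change and the mean level was -0.08, and between the log2 fold change and gene length 0.10. Of the 83, 68 had a mean of at least 1000 TPM, but of the 8 with a change beyond ±0.3 these 68 include only RPS4X and RPL11, and the others (RPL36A, RPS27L, RPL26L1, RPL39L, RPL3L and RPL22L1) were less abundant. Within a group the median coefficient of variation of a member was 3.32% in siNC and 2.22% in siBCAT1. In siNC, replicate 2 was the library farthest from its group's median for 47 of the 83 members.

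**Figure D2:**
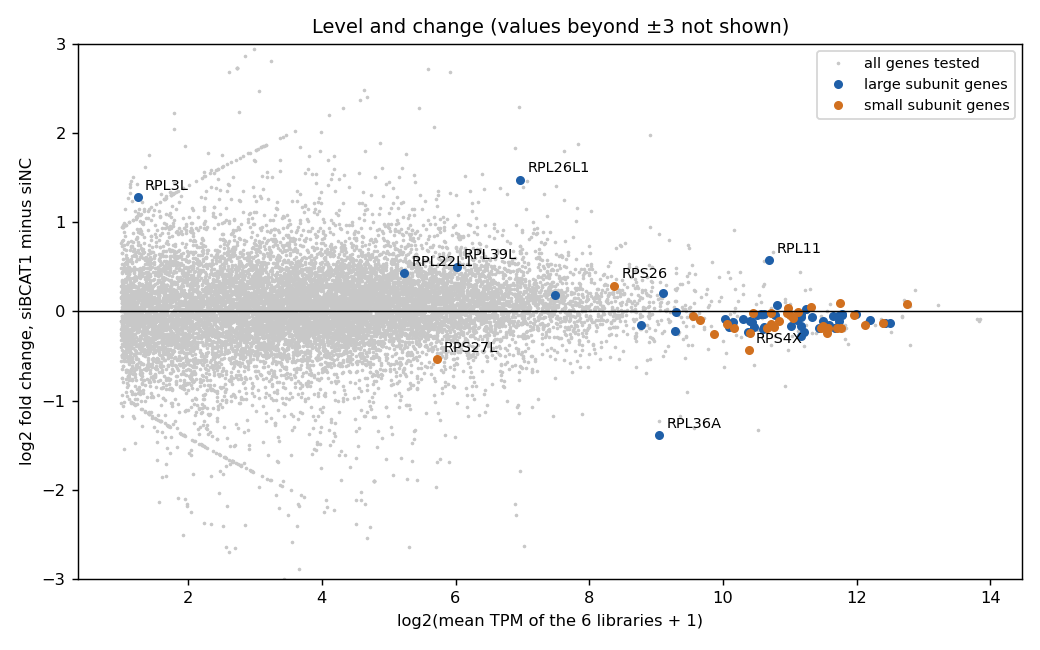
Log2 fold change (y axis, siBCAT1 minus siNC, values beyond ±3 not shown) against log2 of the mean TPM + 1 of the 6 libraries (x axis) for all genes tested (grey), large subunit genes (blue) and small subunit genes (orange). The members gather at the right edge just below 0, and RPL36A, RPL11, RPL26L1 and the other labelled members stand away from them.

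RPL36A (ENSG00000241343, X chromosome, chrX:101390824-101396154, plus strand, GENCODE 29 on GRCh38), a large subunit protein close to the site where the deacylated tRNA leaves, had the largest fall of all members. Its level was 739, 822 and 732 TPM in siNC but 293, 275 and 307 TPM in siBCAT1. All siBCAT1 libraries lay far below all siNC libraries (log2 fold change -1.39 ± 0.06, SE, limma adjusted p = 8.47e-05). The read-through gene RPL36A-HNRNPH2, which overlaps RPL36A and was named after its values were seen, ran in parallel. It was at 1144, 1058 and 1019.5 TPM in siNC and at 453, 408 and 438 TPM in siBCAT1 (log2 fold change -1.31, limma adjusted p = 8.47e-05). Reads of the shared sequence could be split between both rows, so how much of either level belongs to which transcript is uncertain. HNRNPH2, the downstream gene, had a log2 fold change of -0.21 (limma adjusted p = 0.0635). The autosomal copy of RPL36A, RPL36AL, whose coding sequence matches it at 90.03% of 321 positions, was at 464, 473 and 459 TPM in siNC and at 513, 473 and 466 TPM in siBCAT1. Its log2 fold change was 0.06 ± 0.05 (SE, limma adjusted p = 0.444), and its sign turned (-0.0014) with a correction for gene length.

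RPS4X (ENSG00000198034, chrX:72255679-72277300, minus strand), a protein of the body of the small subunit, was the next most lowered of the abundant members. Its siNC values were 1533, 1536 and 1538 TPM and its siBCAT1 values 1089, 1194 and 1138 TPM. The groups did not overlap and the gap was larger than the spread within either (log2 fold change -0.43 ± 0.04, SE, limma adjusted p = 0.00084). The gene lies opposite PIN4 in the annotation, and whether the counting used the strand of the stranded libraries is not given in the sources used here, so reads of the overlap could be assigned to either gene.

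RPL11 (ENSG00000142676, chr1:23691742-23696835, plus strand) was the only member with a mean of at least 1000 TPM that was called higher. It was at 1312, 1319 and 1349 TPM in siNC and at 1996, 1945 and 1974 TPM in siBCAT1. The lowest siBCAT1 library stood well above the highest siNC library (log2 fold change 0.57 ± 0.03, SE, limma adjusted p = 0.000165). Its partner in the 5S particle, RPL5, went the other way. RPL5 was at 1146, 1184 and 1152 TPM in siNC and at 1019, 1019 and 1036 TPM in siBCAT1. Its groups did not overlap either (log2 fold change -0.18 ± 0.04, SE, limma adjusted p = 0.0103), and only the fit without a variance trend lost the call (adjusted p = 0.0973).

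**Figure D3:**
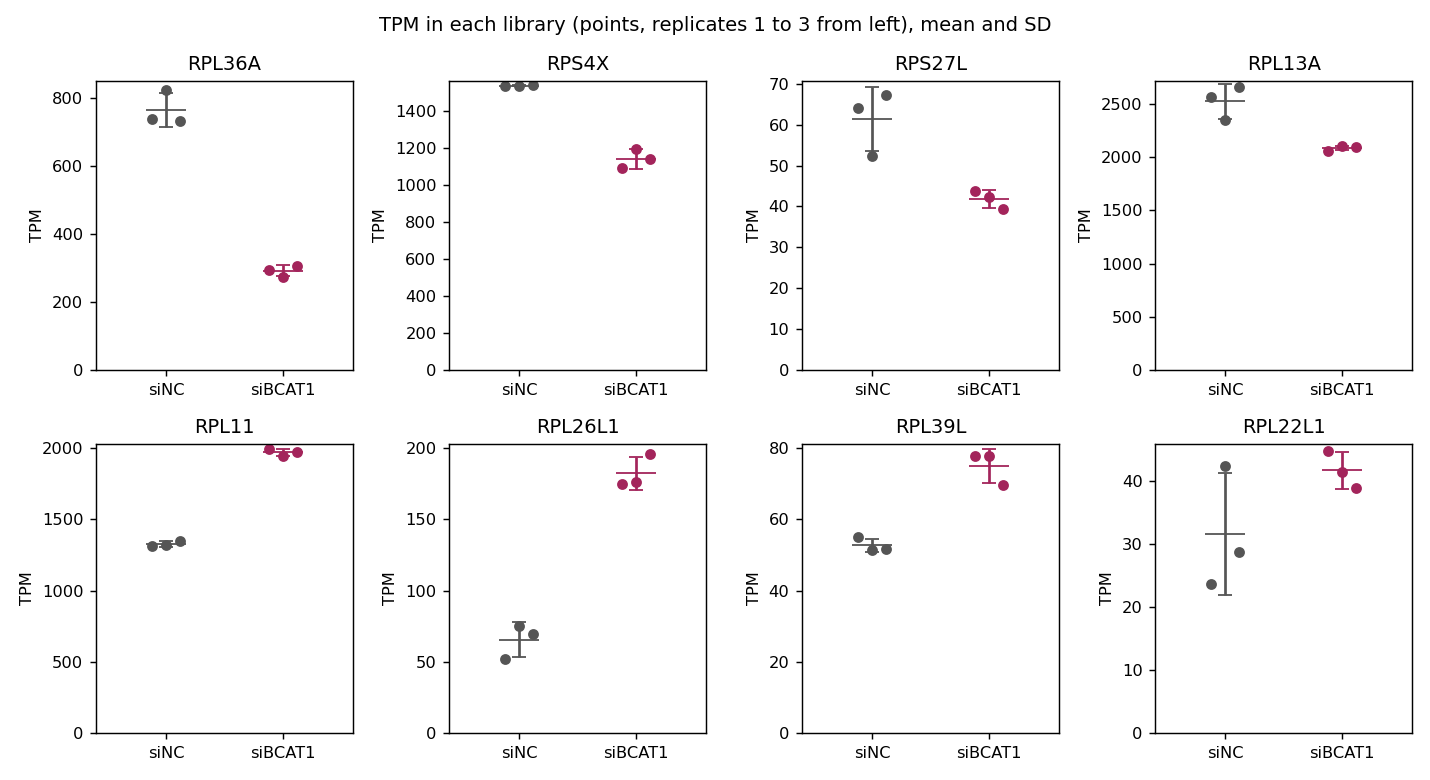
TPM of 8 members (one per panel, y axes from 0) in the siNC (grey) and siBCAT1 (red) libraries, with points for replicates 1 to 3 from left to right, a line for the mean and bars for the SD (n = 3). The groups are apart in 7 panels and overlap for RPL22L1, where siNC replicate 2 (42.3 TPM) lies within the siBCAT1 range.

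Of the remaining falls, the largest in the large subunit were those of RPL13A, RPL35A, RPL15 and RPL34, and the largest in the small subunit those of RPS19, RPS29 and RPS3A. RPL13A, which in myeloid cells can leave the ribosome to silence inflammatory mRNAs, was at 2568, 2343 and 2654 TPM in siNC and at 2061, 2103 and 2095 TPM in siBCAT1. All siBCAT1 values were lower (log2 fold change -0.27 ± 0.05, SE, limma adjusted p = 0.00808). RPS19, a small subunit head protein and the gene most often mutated in Diamond-Blackfan anaemia, was at 1026, 1005 and 1008 TPM in siNC and at 855, 868 and 823 TPM in siBCAT1. The spread within each group was small beside the gap (log2 fold change -0.26 ± 0.04, SE, limma adjusted p = 0.00365).

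The others moved by about the same amount. RPS29, a zinc-binding head protein, had a log2 fold change of -0.25 (adjusted p = 0.00987), and RPS3A, a protein of the platform of the small subunit, one of -0.24 (adjusted p = 0.00501). RPL35A and RPL15, both also mutated in Diamond-Blackfan anaemia, had log2 fold changes of -0.23 (adjusted p = 0.00554) and -0.23 (adjusted p = 0.00403), and RPL34 one of -0.22 (adjusted p = 0.0294). The limma call of each of these 5 was lost without a variance trend. RPL13A lost its call under that setting and without a filter on low values, RPS29 under both and under quantile normalization, and RPL34 when siNC replicate 3 or any siBCAT1 library was left out, among others.

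Grouped by place in the ribosome, the falls were spread over several sites. The acidic stalk, which recruits the GTPases of translation, is built by RPLP0, RPLP1 and RPLP2 on a base with RPL12, and for all 4 genes the siBCAT1 values lay below the siNC values without overlap, as they did for 54.2% of all members and 18% of all genes tested. Of these RPLP2 (log2 fold change -0.19, limma adjusted p = 0.0315) and RPL12 (-0.10, adjusted p = 0.0451) passed the test, and RPLP1 (-0.10, adjusted p = 0.125) and RPLP0 (-0.06, adjusted p = 0.174) did not, although both were called lower with the length correction, without or with the block. These are weak calls. RPLP2 lost its call in 10 of the 17 alternatives, among them those without siNC replicate 2 or 3 or without any one siBCAT1 library, and RPL12 lost it in 10, among them those without siNC replicate 1 or 3 or without any one siBCAT1 library and quantile normalization, where its sign turned (0.0036).

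None of the 3 exit tunnel wall genes was called by limma, none had an unadjusted p under 0.05, and RPL17 alone gained a call, as higher, under quantile normalization: RPL4 had a log2 fold change of -0.05 ± 0.05 (SE, limma adjusted p = 0.482), RPL17 of 0.02 ± 0.03 (adjusted p = 0.664) and RPL39 of -0.04 ± 0.05 (adjusted p = 0.614). Of the 6 genes at the rim of the tunnel exit, RPL26 was lower (-0.13, adjusted p = 0.0457), RPL23A higher and the remaining 4 not called, so 16.7% were called in each direction, against 10.4% lower and 16.7% higher of all genes tested. RPL23A, which helps to dock the signal recognition particle, was at 469, 549.6 and 516 TPM in siNC and at 580.4, 582 and 611 TPM in siBCAT1, without overlap (log2 fold change 0.21, adjusted p = 0.0475). Its call was lost in 11 of the 17 alternatives, and both RPL23A and RPL26 lost theirs when siNC replicate 1 or 3 or any one siBCAT1 library was left out. The row of the pseudogene RPL23AP42 was more abundant, at 2179 to 2432 TPM in siNC and 2723 to 2775 TPM in siBCAT1, so the level of RPL23A is uncertain. A sum of RPL23A with its pseudogene-named and read-through rows, chosen after seeing the data, was higher in siBCAT1 without overlap. It was at 2953, 2780 and 2882 TPM in siNC and at 3383, 3407 and 3470 TPM in siBCAT1.

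In the small subunit, 7 of the 14 head proteins were lower and none was higher by limma (8 had an unadjusted p under 0.05 in either direction), and in 8 of the 14 the groups did not overlap, with siBCAT1 lower. These shares, 50% called lower and 57.1% without overlap, stand beside 37.3% and 54.2% of all members and 10.4% and 18% of all genes tested. RPS3, which lines the mRNA entry channel, was at 3667, 3730.1 and 3776 TPM in siNC and at 3325, 3218 and 3245.1 TPM in siBCAT1. These groups were clearly apart (log2 fold change -0.19 ± 0.03, SE, limma adjusted p = 0.00508), although the call was lost without a filter, without a variance trend and under quantile normalization (-0.06, adjusted p = 0.266). RPS2, the other entry protein, did not overlap between groups and had a log2 fold change of -0.13 (adjusted p = 0.0867). It was called lower with the length correction, without or with the block, and without siNC replicate 2. At the mRNA exit, RPS14 (log2 fold change -0.10, limma adjusted p = 0.146), RPS26 and RPS28 (-0.04, adjusted p = 0.431) were not called. RPS26, the protein that contacts bases upstream of the start codon, had the largest positive value of the small subunit, with 261, 331 and 304 TPM in siNC and 329, 390.4 and 372 TPM in siBCAT1. Its groups overlapped, since siNC replicate 2 lay above siBCAT1 replicate 1 (log2 fold change 0.29 ± 0.10, SE, adjusted p = 0.0726). A sum of RPS26 with its pseudogene-named and read-through rows, chosen after seeing the data, did not overlap. It was at 283, 340 and 318 TPM in siNC and at 371, 437 and 414 TPM in siBCAT1.

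Of the members with roles outside the core of the ribosome, RPS6, RPSA, RPS27A and RPL41 had small negative values, and only RPL41 was called. RPS6, the substrate of S6 kinase downstream of mTORC1, had a log2 fold change of -0.06 ± 0.06 (SE, limma adjusted p = 0.53), and RPSA, which is also a laminin receptor, of -0.02 ± 0.04 (adjusted p = 0.735). RPS27A, made as a fusion with ubiquitin, had -0.18 ± 0.08 (adjusted p = 0.14) and gained a call only with the replicate number as a block, with or without a correction for gene length. RPL41, a very short basic peptide that bridges the subunits, was lower (-0.13, adjusted p = 0.0261), a call lost in 8 of the 17 alternatives, among them those without siNC replicate 1 or 3 or siBCAT1 replicate 1 or 2. Of the ribosomal proteins whose names fall outside the rule, RACK1, a signalling scaffold on the head of the small subunit, was lower (-0.25, adjusted p = 0.00645, lost in 3 of the 17 alternatives), while FAU, the precursor of a small subunit protein, had 0.14 (adjusted p = 0.198).

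The second copies of ribosomal protein genes, taken by name, often moved differently from the genes they resemble. Of the 7 copies 6 were tested, and 3 were higher (50%) and 1 lower (16.7%), with a median of 0.47. Among the 3 is RPL3L, which reached the filter only through its siBCAT1 values (mean 2.37 TPM, against 0.37 TPM in siNC). The count of 3 and the median therefore rest in part on how the genes were selected. Without the copies, 2 of the remaining 77 members were higher (2.6%) and 30 lower (39%), with a median of -0.11. Of all genes tested, 16.7% were higher and 10.4% lower. This contrast is a description of members chosen with their values known and was not tested. The copies were the least abundant members, between 1.37 and 178 TPM on average.

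RPL26L1 (ENSG00000037241, chr5:172958729-172969771, plus strand) had the largest rise of all members. It was at 51.6, 75.1 and 69.8 TPM in siNC and at 175, 176 and 196 TPM in siBCAT1. Every siBCAT1 library was above every siNC library (log2 fold change 1.48 ± 0.14, SE, limma adjusted p = 0.000607). RPL26, whose coding sequence matches that of RPL26L1 at 84.2% of positions with no shared run over 20 bases, was lower (-0.13, as given above) but lost that call in 9 of the 17 alternatives. RPL26L1 lies partly opposite an antisense gene, and the use of strand is not known.

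RPL39L (ENSG00000163923, chr3:187120948-187180908, minus strand), best known from the testis, was at 54.9, 51.5 and 51.65 TPM in siNC and at 77.9, 77.7 and 69.6 TPM in siBCAT1. The groups did not overlap (log2 fold change 0.50 ± 0.07, SE, limma adjusted p = 0.00284), and RPL39 was not called. The 2 coding sequences, from GENCODE 29 on GRCh38, are shown to make clear how alike the rows are that the reads had to be assigned to. They differ at 8 of 156 bases, in capitals, and share a run of 44 bases. In addition RPL39P3, a pseudogene row of RPL39, was at 598 to 940.2 TPM in siNC and 927 to 1319 TPM in siBCAT1.
RPL39: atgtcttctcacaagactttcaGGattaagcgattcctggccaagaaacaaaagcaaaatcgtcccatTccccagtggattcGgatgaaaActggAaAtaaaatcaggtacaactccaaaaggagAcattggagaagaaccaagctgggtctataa
RPL39L: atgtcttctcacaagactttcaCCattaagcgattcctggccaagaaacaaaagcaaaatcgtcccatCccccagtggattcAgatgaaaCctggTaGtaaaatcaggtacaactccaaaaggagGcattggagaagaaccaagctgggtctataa

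RPS27L (ENSG00000185088, chr15:63125872-63158021, minus strand), a copy that p53 can induce, went down. It was at 64.2, 52.4 and 67.3 TPM in siNC and at 43.8, 42.2 and 39.4 TPM in siBCAT1. All siBCAT1 values were lower (log2 fold change -0.53 ± 0.10, SE, limma adjusted p = 0.00987). RPS27, the most abundant member, was at 6847, 6796 and 6536 TPM in siNC and at 7052, 6971 and 7274 TPM in siBCAT1. It was slightly higher in each siBCAT1 library without passing the test (log2 fold change 0.08 ± 0.03, SE, adjusted p = 0.121). The pair differs at 56 of 255 coding bases, in capitals below, and shares no run over 20 bases, a much lower likeness than in RPL39. RPS27L lies opposite LACTB in the annotation, with the same uncertainty about the strand as for RPS4X.
RPS27: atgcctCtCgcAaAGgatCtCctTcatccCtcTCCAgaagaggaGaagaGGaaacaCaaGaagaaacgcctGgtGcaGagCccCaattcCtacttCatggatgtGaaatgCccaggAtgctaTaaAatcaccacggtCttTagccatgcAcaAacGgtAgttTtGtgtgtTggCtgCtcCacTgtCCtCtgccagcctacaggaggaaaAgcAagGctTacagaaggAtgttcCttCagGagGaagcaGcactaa
RPS27L: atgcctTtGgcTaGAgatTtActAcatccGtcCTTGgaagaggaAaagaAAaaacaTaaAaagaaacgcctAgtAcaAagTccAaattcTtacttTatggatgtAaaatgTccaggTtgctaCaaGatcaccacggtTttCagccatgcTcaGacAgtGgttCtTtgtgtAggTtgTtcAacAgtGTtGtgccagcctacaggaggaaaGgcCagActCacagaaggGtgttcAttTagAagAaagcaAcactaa

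The other copies gave weaker values. RPL3L, known from heart and skeletal muscle, was listed at 0.90, 0.05 and 0.17 TPM in siNC and at 1.58, 1.71 and 3.83 TPM in siBCAT1. It passed the filter only through its siBCAT1 values, with means of 0.37 TPM in siNC and 2.37 TPM in siBCAT1. Its log2 fold change was 1.28 ± 0.35 (SE, limma adjusted p = 0.032), and 2.73 (adjusted p = 0.0355) with a pseudocount of 0.1. Since the group where it is high brought it into the test, the test cannot decide whether RPL3L changed. Its call was also lost in 8 of 16 alternatives, among them those without siNC replicate 2 or 3 or without any one siBCAT1 library. RPL22L1, which can act in place of RPL22, was at 23.6, 42.3 and 28.7 TPM in siNC and at 44.8, 41.4 and 39.0 TPM in siBCAT1. Its siNC replicate 2 lay within the siBCAT1 range (log2 fold change 0.43 ± 0.19, SE, adjusted p = 0.143). Without that library its log2 fold change was 0.66 (adjusted p = 0.00825), but without siNC replicate 1 it was 0.25 (adjusted p = 0.345). RPL7L1, an RPL7-like gene, had 0.19 ± 0.09 (adjusted p = 0.162) and gained a call with the replicate number as a block (adjusted p = 0.0456). It counts as a member and a copy by its name, and whether its protein is part of the ribosome was not checked. RPL3, RPL7, RPL10 and RPL22 themselves were not called, with log2 fold changes of -0.04, -0.12, -0.03 and -0.01. RPL3 and RPL7 were called lower with the length correction, without or with the block, and RPL7 also with scaling to the total outside the members. The signs of RPL3 and RPL10 turned under quantile normalization.

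The transcription starts of the members were read from the RefSeq promoter windows (GRCh38.p14, 250 bases before to 50 after the start), which matched 67 of the 84 members by symbol. A start of C followed by at least 4 pyrimidines was found in 47 of the 67 (70.1%), against 6.96% of the 9909 other tested genes with a window and 4.98% of the 27238 other genes with a window. The windows below, 30 bases before and 20 from the annotated start, show this start in members that fell (RPL36A, RPL13A, RPS19), in one that rose (RPL11) and in RPL22L1, with the pyrimidine run in capitals, and its absence in RPL26L1, RPS4X and RPS27L. Starts in the annotation need not be the starts used in these cells.
RPL36A (chrX:101390981-101391030, plus strand): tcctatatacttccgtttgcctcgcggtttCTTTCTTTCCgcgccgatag
RPL13A (chr19:49487578-49487627, plus strand): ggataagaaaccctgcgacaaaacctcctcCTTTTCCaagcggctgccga
RPS19 (chr19:41860225-41860274, plus strand): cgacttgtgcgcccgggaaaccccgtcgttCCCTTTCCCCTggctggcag
RPL11 (chr1:23691776-23691825, plus strand): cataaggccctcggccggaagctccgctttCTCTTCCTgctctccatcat
RPL22L1 (chr3:170870176-170870225, minus strand): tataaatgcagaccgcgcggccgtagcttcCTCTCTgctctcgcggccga
RPL26L1 (chr5:172958699-172958748, plus strand): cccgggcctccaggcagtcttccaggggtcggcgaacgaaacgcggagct
RPS4X (chrX:72277229-72277278, minus strand): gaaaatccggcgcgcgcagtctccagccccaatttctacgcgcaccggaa
RPS27L (chr15:63157458-63157507, minus strand): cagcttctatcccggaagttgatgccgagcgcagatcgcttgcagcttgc

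Members with and without such a start overlapped widely in their change. The 47 with it had a median log2 fold change of -0.11, with 21 lower and 1 higher, and ranged from -1.39 to 0.57. The 19 tested members whose window lacks it had a median of -0.04, with 6 lower and 1 higher, and ranged from -0.53 to 1.48. Of all genes tested, 10.4% were lower and 16.7% higher. Within the 300-base windows, on either strand and with motifs allowed to share bases, CTTTCC was found in 46.3% of the members, 32.7% of the other tested genes and 30.2% of all other genes. CCGGAAG was found in 35.8%, 23.3% and 12.1%, and GCCATNTT in 16.4%, 12.8% and 7.95%. A match describes the letters only.

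Genes outside the ribosome whose mRNAs are known to begin with a TOP motif were examined next. Of 19 such genes, mostly translation factors, 2 were lower and 3 higher (median log2 fold change -0.05). These are 10.5% and 15.8% of the list, against 10.4% and 16.7% of all genes tested. The log2 fold change was negative for 13 of the 19, and the groups did not overlap, with siBCAT1 lower, for 8 (42.1%, against 18% of all genes) and, with siBCAT1 higher, for 5 (26.3%, against 26.1%). PABPC1, the cytoplasmic poly(A)-binding protein, fell from 807 ± 49.0 to 619 ± 32.2 TPM (SD, n = 3, log2 fold change -0.38, limma adjusted p = 0.00455) and EEF1G was lower by less (-0.15, adjusted p = 0.0256). EIF3F, a subunit of the initiation factor eIF3, rose from 139 ± 9.10 to 310.3 ± 16.0 TPM (log2 fold change 1.16, adjusted p = 0.000164), EEF1D by 0.50 (adjusted p = 0.00225) and HNRNPA1 by 0.25 (adjusted p = 0.0263).

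Of 12 regulators of TOP mRNAs and ribosome synthesis 1 was higher (8.33%, against 16.7% of all genes tested) and 2 were lower (16.7%, against 10.4%), and with so few genes these shares are near those of all genes. MYC, which drives transcription of ribosomal protein genes, was at 514, 516 and 570.2 TPM in siNC and at 689, 637 and 839 TPM in siBCAT1 (log2 fold change 0.43, limma adjusted p = 0.0209). RPTOR, the mTORC1 subunit that recruits substrates, was at 28.1, 27.9 and 28.3 TPM in siNC and at 18.5, 19.5 and 17.7 TPM in siBCAT1 (-0.58, adjusted p = 0.00199). EIF4EBP2, a translation repressor that mTORC1 inactivates, was lower too (-0.54, adjusted p = 0.00628). LARP1 had 0.13 (adjusted p = 0.451) and MTOR 0.15 (adjusted p = 0.185).

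Of 11 chaperones and assembly partners of single ribosomal proteins, 5 were higher and none lower by limma (7 had an unadjusted p under 0.05 in either direction), and in none did all siBCAT1 values lie below all siNC values. The 5 are 45.5% of the list, against 16.7% of all genes tested that were higher, while 10.4% of all genes were lower and 18% lower without overlap. TSR2, the escort of RPS26, rose from 17.6 ± 0.809 to 28.3 ± 0.918 TPM (SD, n = 3, log2 fold change 0.66, adjusted p = 0.00132), and PDCD2L and PDCD2, which hold RPS2, by 0.48 (adjusted p = 0.00719) and 0.39 (adjusted p = 0.00788). PRMT3, which methylates RPS2, and AAMP rose by 0.38 (adjusted p = 0.0348) and 0.20 (adjusted p = 0.0454).

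Genes named for the proteins of the separate ribosome of mitochondria (MRPL or MRPS and a number) were higher more often than lower. They are encoded in the nucleus and were taken by name alone, so a listed gene need not encode a part of that ribosome. Of the 78 tested, 34 were higher (43.6%, against 16.7% of all genes tested) and 3 lower (3.85%, against 10.4%) by limma. Their median log2 change amounted to 0.21, beside 0.04 for all genes tested. MRPS34 rose by 0.88 (adjusted p = 0.000997) and MRPL15 by 0.83 (adjusted p = 0.00139), while MRPL37 fell by 0.62 (adjusted p = 0.00264). MRPS36, whose place in that ribosome was not checked, fell by 1.01 (adjusted p = 0.000592). The distributions of the cytosolic and mitochondrial genes differed in sign at the median, and the difference was not tested, as the genes of a list are not independent.

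**Figure D4:**
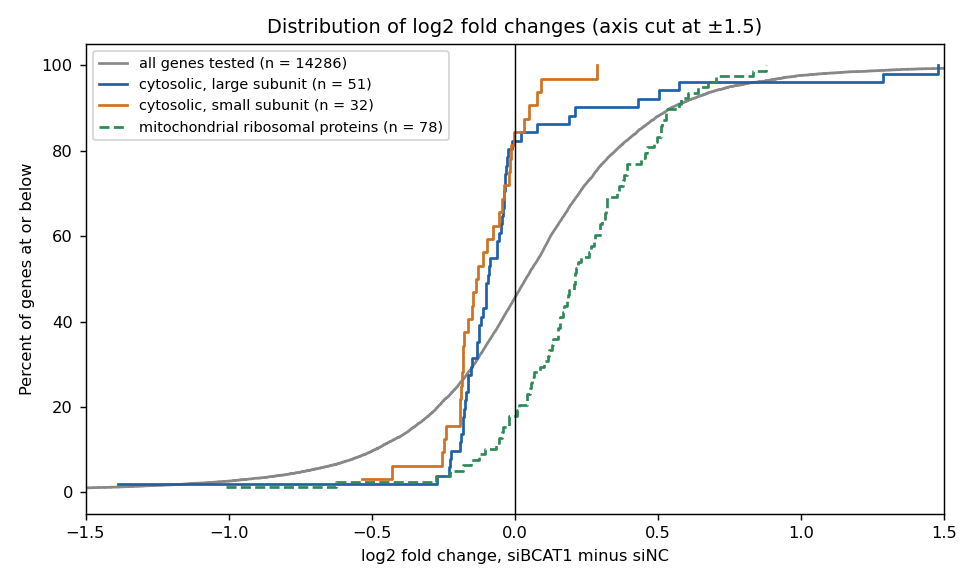
Percent of genes at or below a log2 fold change (x axis, siBCAT1 minus siNC, shown from -1.5 to 1.5) for all genes tested (grey, n = 14286), large subunit genes (blue, n = 51), small subunit genes (orange, n = 32) and mitochondrial ribosomal protein genes (green dashes, n = 78). The cytosolic curves climb steeply just below 0 (medians -0.09 and -0.13) and the mitochondrial curve lies to the right of 0 (median 0.21).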

How the data were processed

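Total RNA of 6 libraries (siNC, n = 3, siBCAT1, n = 3) was prepared with a stranded mRNA kit. Per the labels' processing notes the authors used fastp, HISAT2 and StringTie on GRCh38. Versions and the annotation are not given in the sources used here. The authors deposited 1 TPM value per gene and library with a gene length. The unit was read from the values, which hold decimals and have nearly the same sum in each library. Samples were grouped by their labels.

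Values were transformed to log2(TPM + 1), so fold changes of low genes are understated. The 14286 genes whose mean reached 1 TPM were fitted together in R 4.3.3 by limma 3.58.1, using lmFit and eBayes with a variance trend. Tests were two-sided, and p-values were adjusted over all of these genes by the Benjamini-Hochberg method (threshold 0.05). An exact permutation test of 3 against 3 cannot give a two-sided p below 0.1. No pair of libraries had equal values for more than 1.42% of tested genes. The members and gene lists were chosen with earlier results of these data known, and no test was run over a list. Named genes were BCAT1, in each subunit the 5 largest rises and falls among called members whose groups do not overlap, and stated sets (stalk, 5S particle, exit tunnel, mRNA channel, RPS6, RPS27A, RPSA, RPL41, RPS4X, copies with the genes they resemble, FAU, RACK1, RPL36AL), with up to 3 risers and 3 fallers of each other list. For the chaperones all 5 called risers were named, so PRMT3 and AAMP go beyond that limit. RPL36A-HNRNPH2, HNRNPH2, RPS26, LARP1, MTOR and pseudogene rows were named after their values were seen. Results of some genes under this rule are not reported here singly, although counts include them.

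In simulated data 14057 genes were tested. Of genes changed by 1 on the log2 scale 64.6% were called, and of those changed by 0.5, 23.5%. None (0) went in the wrong direction, and 6 of 91 calls were false. The simulation changed 200 genes drawn from all genes, fewer than the 3865 called in the data. Members also had smaller standard errors than most genes, so these shares do not give the power for the members. Alternatives were a pseudocount of 0.1, no filter or a mean of at least 5 TPM, median-ratio, quantile and non-ribosomal scaling, a loess correction for length (span 0.5), the replicate number as a block, eBayes without trend and each library left out. Sums of each member with its pseudogene and read-through rows were chosen after seeing the data. Tables were made in Python 3.11.15 with pandas 2.3.3, figures with matplotlib 3.10.9. Annotation came from GENCODE 29 (coordinates and coding sequences) and RefSeq (starts).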

Additional observations from a re-analysis of the deposited data

How the results depend on the processing

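BCAT1 kept its direction and call in every alternative. Without a filter on low values 3 members were higher and 8 lower (large subunit 3 and 4, small subunit 4 lower). Under quantile normalization 8 were higher and 13 lower (large subunit 8 lower, small subunit 1 higher and 5 lower), and the medians were 0.0059 for the large and -0.054 for the small subunit. Without a variance trend 4 were lower (large 1, small 3). Median-ratio scaling gave medians of -0.15 and -0.18, and the length correction, with or without the block, -0.14 and -0.20. Scaling to the total outside the ribosomal protein genes gave a large subunit median of -0.12 and a difference in share of -1.84 percentage points. The share has no value under settings that leave TPM unchanged. Summing members with their pseudogene and read-through rows gave 1 higher small subunit gene. The cause of these differences was not tested.

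The replicate number as a block gave 1 higher small subunit gene and, with the length correction, 49 lower members (large 29, small 20) with 3 higher in the large and 1 in the small subunit. Same-numbered libraries correlated at 0.08, 0.10 and 0.12 in their deviations, each best with its own number, a hint from the data and not the design, so the numbers were not taken as pairs. The block called 4568 genes in all against 3865.

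With 1 library left out, lower members ranged from 17 to 31 and higher ones from 3 to 7 (large subunit 8 to 17 and 3 to 5, small subunit 9 to 14 and 0 to 2), the large subunit median ran from -0.10 to -0.079, the small subunit median from -0.14 to -0.12 and the difference in share from -1.33 to -1.16.

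Of 41 genes under the naming rule, 10 changed sign somewhere. Under quantile normalization RPLP0 was at 0.0071, RPL12 at 0.0036, RPL4 at 0.065, RPL39 at 0.10, RPSA at 0.025, RPL3 at 0.0067 and RPL10 at 0.11. RPL17 was at -0.029 with median-ratio scaling, -0.00094 with the total outside the members and -0.052 with the length correction, with or without the block, under which RPL36AL was at -0.0014. RPL39 summed with its pseudogene rows was at 0.082. With 1 library left out RPL22 ran from -0.13 to 0.074, RPL39 from -0.078 to 0.014, RPSA from -0.032 to 0.0014 and RPL10 from -0.071 to 0.024. Of the 23 of these genes that were called, 16 lost the call in at least 1 of 17 alternatives and 7 kept it in all. Of the others, 9 gained one.

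The depth is unknown, so no limit from counting can be given, and low members such as RPL3L rest on the spread of 3 libraries.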

Other observations

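The table also holds 1295 rows named as pseudogenes of the members, 444 of them above 0. In sum they took 0.596% ± 0.0237 of the TPM in siNC and 0.653% ± 0.0257 in siBCAT1 (SD, n = 3). For 4 members these rows summed to over 10% of the gene itself, namely RPL23A (470.5%), RPS28 (115%), RPL39 (26.4%) and RPL22 (17.6%). RPS28P7 was at 2075, 2589 and 2356 TPM in siNC and at 2127, 2275 and 1934 TPM in siBCAT1, with overlap. RPS26P19 was at 20.8, 8.13 and 14.2 TPM in siNC and at 41.3, 45.8 and 42.0 TPM in siBCAT1, without overlap. RPL23AP42 was also higher (log2 fold change 0.25, limma adjusted p = 0.00751). How far reads of a member were assigned to such rows was not tested.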
